A study of Homo sapiens with 6 samples.

Results

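The 51 genes described here encode the proteins that license replication origins, unwind DNA, copy it and protect the fork. They are a list drawn up by function, but with earlier results of these data known. All 51 were found by symbol, through GENCODE 29, among the 33890 genes of the deposited table. The cells were LN229, an established human glioblastoma line whose label reads grade IV glioma, grown in DMEM with fetal bovine serum. One group of 3 libraries came from cells left without treatment, and the other group of 3 from cells kept with 800 µM ursodeoxycholic acid (UDCA), a hydrophilic bile acid given to patients with cholestasis, for 48 h. No genetic change separates the groups, both carry whatever alterations the line has, and the labels do not name a vehicle for the controls. The labels do not say whether replicates were cultured separately. The tests therefore reflect the spread among these 6 libraries only, and that spread may be technical. In bulk RNA, fewer cells in S phase and less of an mRNA per cell cannot be told apart.

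Replication is prepared in G1, when the origin recognition complex (ORC) marks origins and, with CDC6 and CDT1, loads the MCM2-7 ring. In S phase the kinase CDC7 with DBF4, together with cyclin-dependent kinase, recruits CDC45 and the GINS complex to the ring and makes it an active helicase. Polymerase alpha with primase then lays primers, the RFC complex loads the sliding clamp PCNA, and polymerases delta and epsilon extend the strands. Many of these genes are transcribed from late G1 under E2F factors and are low in cells that do not divide, while ORC2 to ORC5 are known as subunits that non-dividing cells keep.

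Libraries held 15988951 to 17743022 reads, as recovered from the deposited values, and depth was similar in both groups. Values are FPKM (reads per kilobase of merged exons, scaled to the library's total), given by library in the order of replicates 1, 2 and 3, and a count of 3 reads in 1 kb is worth 0.169 to 0.188 FPKM. Of the 9 markers listed for a glioblastoma line and glia, 7 reached 1 FPKM. VIM stood at 167 ± 1.83 in control and 65.1 ± 0.801 with UDCA (SD, n = 3), while SOX9 and GFAP stayed under 1 FPKM in every library. S100B was at 4.38% of its control level, NES at 18.2%, FABP7 at 0.698% and CD44 at 67.5%, but OLIG2 was at 105% and EGFR at 136%. The 9 markers summed to 698 to 717 FPKM in control, most of it from S100B, VIM and NES, and to 162 to 165 with UDCA. No marker of leukocytes (5) or endothelium (3) reached 1 FPKM in any library; their summed levels lay under 1 FPKM in every library. KRT8 alone of 3 epithelial markers, SNAP25 alone of 3 neuronal ones, and PDGFRB and COL1A1 of 3 fibroblast and pericyte ones reached 1 FPKM, with summed levels of 3.36 to 3.87, 6.06 to 6.87 and 3.42 to 3.90 in control and of 5.45 to 6.13, 4.29 to 5.24 and 2.99 to 3.49 with UDCA. CDH1 and CDH5 were at 0 in all control libraries. Mitochondrially encoded genes took 3.15% ± 0.0156 of reads in control and 0.0267% ± 0.000399 with UDCA. Of reference genes, TBP was at 100% of its control level, B2M at 104%, GUSB at 94.8%, HPRT1 at 111% and RPLP0 at 105%, but ACTB was at 44.2% and PPIA at 32.8%. With library totals taken without mitochondrial genes, 45 of the 51 genes described below were still lower and 2 higher, and their median log2 change was -2.11. The part of the shifts in marker and reference genes was not tested.

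Replication genes fell in the treated cells, but not evenly along the pathway. The 51 genes took 0.426%, 0.427% and 0.427% of all reads in the control libraries and 0.104%, 0.102% and 0.104% in the UDCA libraries. limma was fitted over the 14380 genes that reached 1 FPKM in 3 or more libraries, and 45 of the 51 were lower at a Benjamini-Hochberg adjusted p under 0.05, against 35.7% of all tested genes. Only ORC3 and ORC4 were higher, against 45.1% of all tested genes, and ORC2, ORC5, POLD3 and RFC1 did not pass. By 2-fold or more, measured as log2(FPKM + 1), 40 of the 51 were lower, against 12.0% of all tested genes. In 45 members all 3 UDCA libraries lay below all 3 control libraries, as in 36.7% of tested genes, and by the ratio of means 41 members stood under 50% of control (16.2% of tested genes). The median log2 change was -2.07 for the members and 0.095 for all genes tested. All 51 passed the filter on low values, 17 of them through the control libraries alone, since each of their UDCA libraries lay under 1 FPKM.

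The log2(FPKM + 1) scale understates the change of weakly expressed genes, so depth of loss is given below as the UDCA mean in percent of the control mean, with the SD of the 3 UDCA libraries. By this measure 4 members (MCM10, CDC45, GINS4 and DTL) were under 1% of control, where 0.793% of all tested genes were. Another 13 lay between 1% and 10%, which makes 17 under 10%, against 3.39% of all tested genes. Between 10% and 50% there were 24 members, and 10 stood at 50% or more. The median member was at 17.3% of control and the median tested gene at 108%. Scaling libraries by the median ratio of genes moved the log2 median of all tested genes from 0.095 to 0.002 and that of the members to -2.14. Across the 51 genes, which share libraries and are not independent, Spearman's rho of the control level and the percent left was -0.21. The percent left has the control level as its denominator, so this value cannot show whether loss depends on level.

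**Figure D1:**
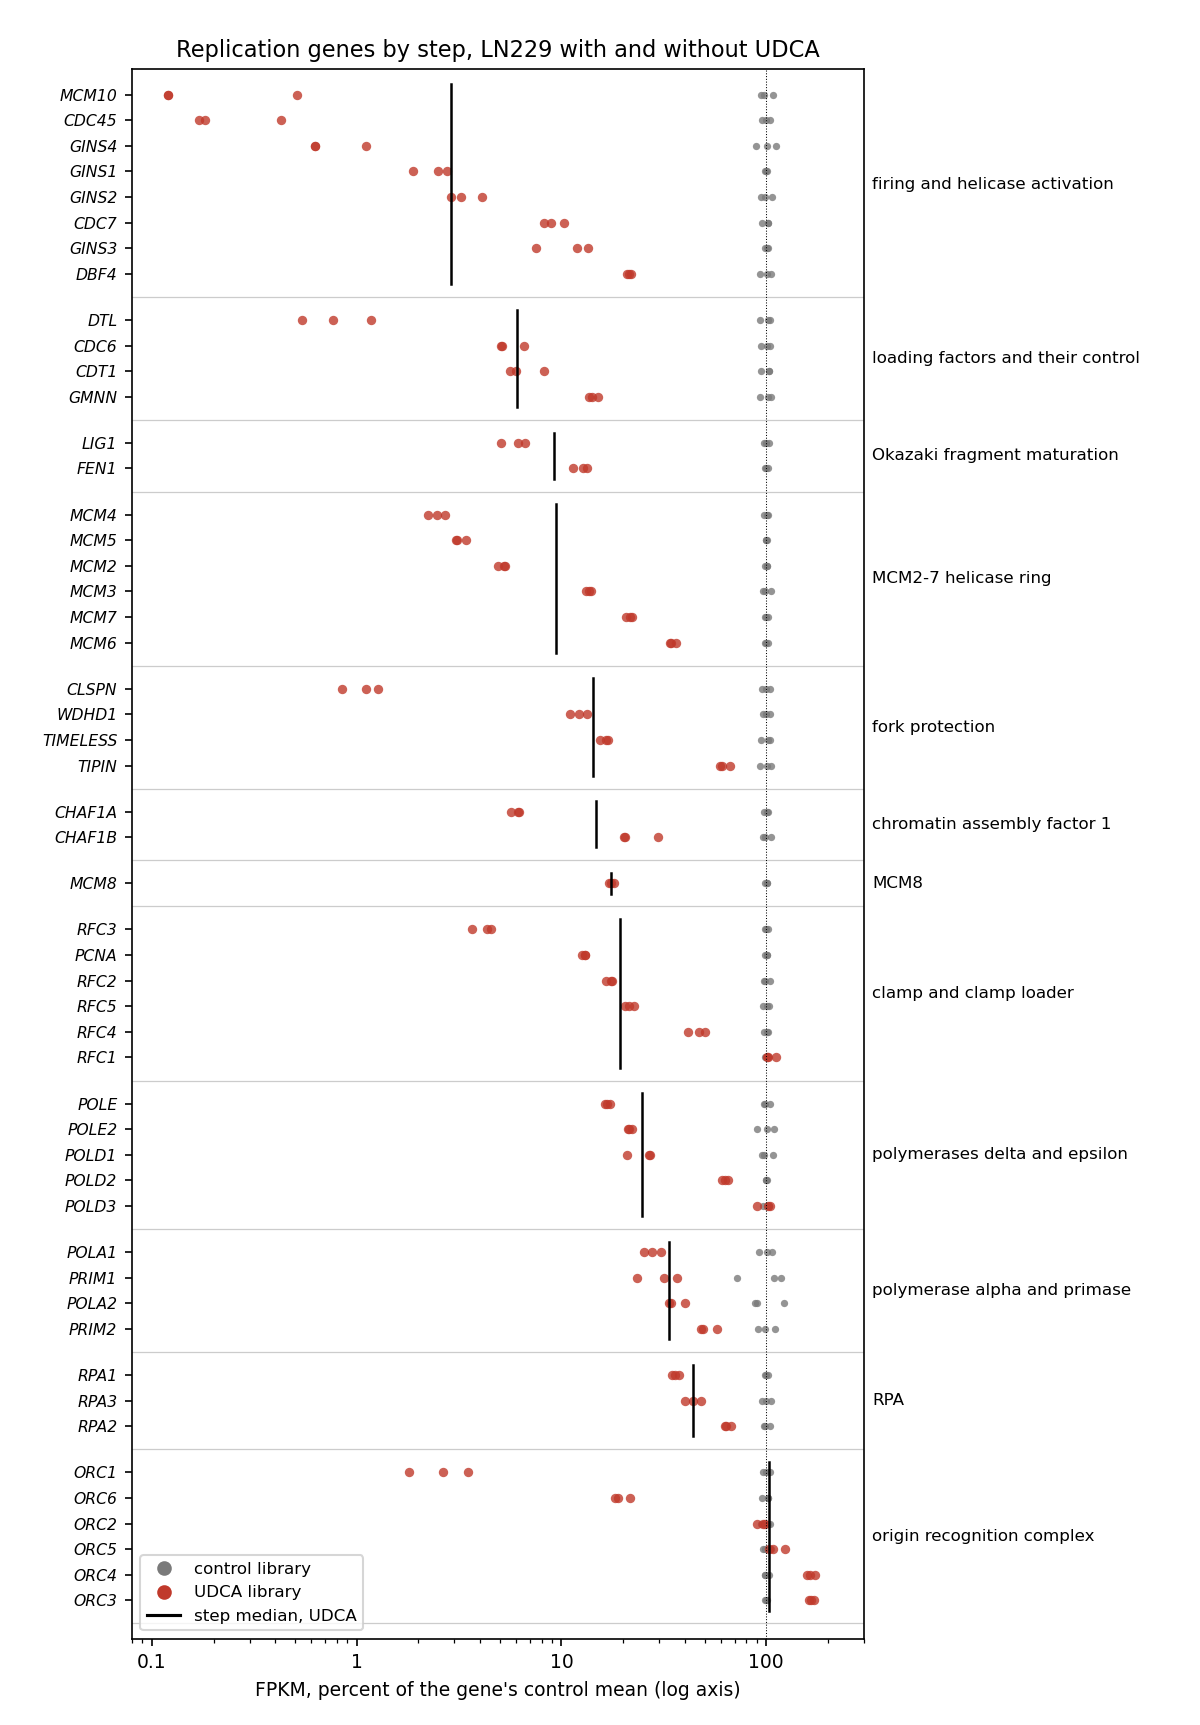
FPKM of each of the 51 genes in each library as percent of that gene's control mean (log axis), with control libraries in grey, UDCA libraries in red, and a black line at the median percent of each step, ordered from the deepest to the shallowest median. Firing genes sit deepest, with a median of 2.89%, and only in the origin recognition complex, POLD3 and RFC1 do red points reach the control libraries at 100%.

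The origin recognition complex split into subunits that were lost and subunits that stayed. ORC1 (chromosome 1, 52372829 to 52404459, GRCh38), the ATPase subunit whose protein rises and falls with the cell cycle, stood at 11.3, 11.8 and 10.9 FPKM in control and at 0.396, 0.204 and 0.299 with UDCA. Every UDCA library lay far below every control library, and 2.64% ± 0.85 of the control level was left (adjusted p = 2.9e-08). ORC6, which binds the core less tightly, was at 9.23, 8.58 and 9.22 FPKM and at 1.70, 1.65 and 1.96, or 19.6% ± 1.8 of control (adjusted p = 1.9e-07). These were the 2 lower members of the complex.

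The core subunits went the other way or did not pass. ORC3 (chromosome 6, 87590067 to 87667453) was at 11.9, 11.8 and 11.7 FPKM in control and at 19.1, 19.6 and 20.2 with UDCA. It rose 1.66-fold, with no overlap of the groups (log2 change 0.68 ± 0.030 SE, adjusted p = 9e-07). ORC4 was at 3.19, 3.04 and 3.05 FPKM and at 5.37, 5.07 and 4.90, a 1.65-fold rise (log2 change 0.58 ± 0.049 SE, adjusted p = 2.8e-05). All 3 UDCA libraries lay above all 3 control libraries in both genes, as they did in 46.1% of tested genes.

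ORC2 was at 6.76, 6.91 and 6.30 FPKM in control and at 6.53, 5.97 and 6.41 with UDCA. The groups overlapped and the log2 change of -0.07 did not pass (adjusted p = 0.25), though it was called lower after quantile normalization (-0.13, adjusted p = 0.041) and after median-ratio scaling (-0.16, adjusted p = 0.018), over a range of adjusted p from 0.018 to 0.56. ORC5 was at 7.63, 8.16 and 7.54 FPKM and at 9.57, 8.37 and 8.0, again with overlapping groups (log2 change 0.13, adjusted p = 0.10). Without UDCA replicate 3 it was called higher (0.18, adjusted p = 0.045), over a range of 0.045 to 0.64. Within the core of ORC2 to ORC5, the highest subunit exceeded the lowest 3.82-fold ± 0.074 in control and 3.84-fold ± 0.28 with UDCA. Over the whole complex that spread went from 3.82-fold ± 0.074 to 70.5-fold ± 24.

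**Figure D2:**
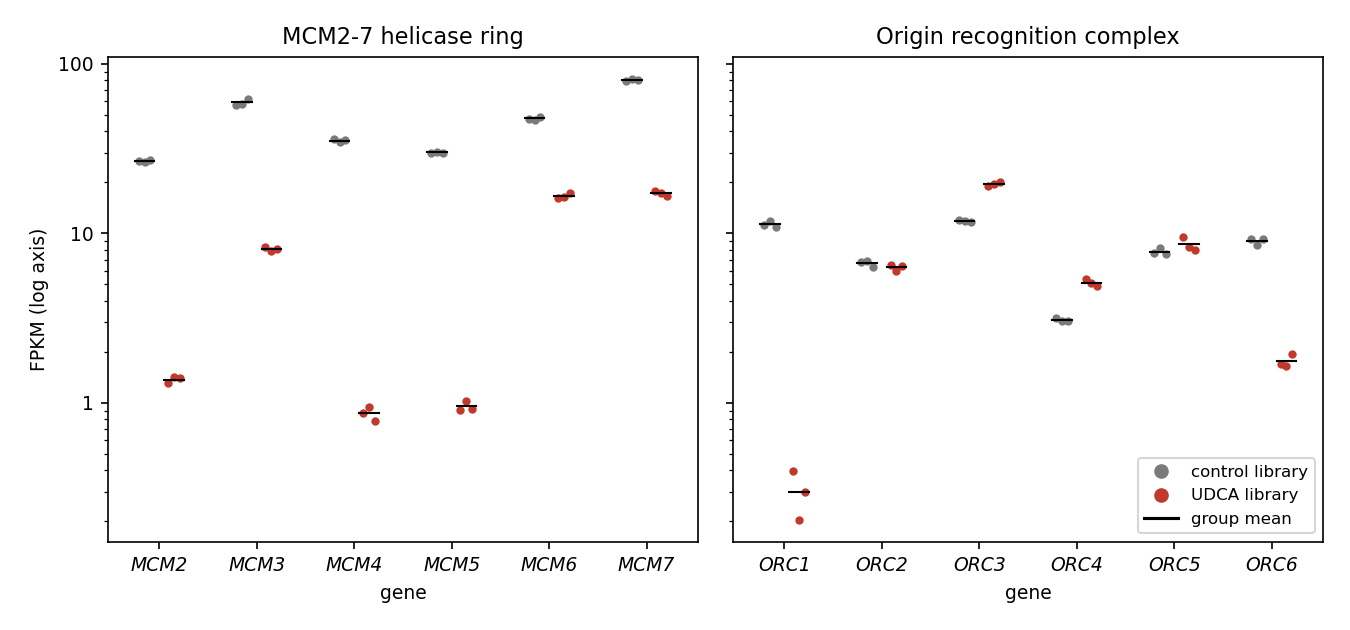
FPKM (log axis) of the MCM2-7 genes (left) and the ORC genes (right) in each library, control in grey and UDCA in red, with black bars at group means. All MCM genes lie lower with UDCA but by unequal distances, and in the ORC panel ORC1 and ORC6 drop while ORC3 and ORC4 rise.

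The loading factors were lower in 4 of 4 genes. CDC6, the ATPase that joins ORC to load the ring, was at 14.6, 15.2 and 13.8 FPKM in control and at 0.743, 0.739 and 0.954 with UDCA, or 5.59% ± 0.85 of control. CDT1, which brings MCM2-7 to the origin, was at 15.2, 16.6 and 16.5 FPKM and at 0.90, 0.967 and 1.32, or 6.60% ± 1.4. The groups did not overlap in either gene (adjusted p = 2.8e-08 and 9.4e-08).

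GMNN encodes geminin, the protein that binds CDT1 and blocks loading after S phase has begun. It was at 13.9, 15.2 and 15.8 FPKM in control and at 2.25, 2.11 and 2.05 with UDCA, which left 14.3% ± 0.69 (adjusted p = 5e-08). DTL, the adaptor through which a CUL4 ubiquitin ligase destroys CDT1 at PCNA, was at 13.9, 13.5 and 12.3 FPKM and at 0.102, 0.155 and 0.0719. Its 27 reads in the UDCA libraries against 3352 in control left 0.831% of control (exact 95% interval 0.547% to 1.21%, for counting error only). In control the 4 genes lay within 1.22-fold ± 0.12 of each other, and with UDCA the highest, GMNN, exceeded the lowest, DTL, by 21.4-fold ± 7.5. The ratio of CDT1 to GMNN went from 1.08 to 0.492, lower in every UDCA library than in any control library.

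The MCM2-7 ring, the core of the replicative helicase, was lower in 6 of 6 genes, with 2.47% to 35.0% left. MCM4 was at 35.8, 34.5 and 35.3 FPKM in control and at 0.870, 0.951 and 0.786 with UDCA (2.47% ± 0.23 left). MCM5 was at 29.8, 30.3 and 29.9 FPKM and at 0.912, 1.02 and 0.923 (3.18% ± 0.20 left). MCM2, at 26.9, 26.3 and 26.9 FPKM, came to 1.31, 1.41 and 1.39 (5.14% ± 0.20 left). These 3 genes stood near 1 FPKM in each treated library, 19.4-fold or more below control.

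The other ring genes kept more of their mRNA. MCM3 was at 57.5, 58.3 and 62.4 FPKM in control and at 8.28, 7.84 and 8.05 with UDCA (13.6% ± 0.36 left). MCM7, whose introns host a microRNA cluster, was at 79.4, 81.7 and 79.9 FPKM and at 17.8, 17.4 and 16.6 (21.5% ± 0.77 left). MCM6 (chromosome 2, 135839626 to 135876426) was at 47.5, 46.7 and 48.7 FPKM and at 16.2, 16.4 and 17.4 (35.0% ± 1.3 left). None of these ranges overlapped, and all 6 ring genes had adjusted p of 3.5e-08 or less. The 6 proteins enter the ring in equal numbers. In control the highest of their mRNAs exceeded the lowest 3.01-fold ± 0.087 in FPKM, against 20.3-fold ± 1.9 with UDCA. Each spread depends on the exon length assigned to each gene, and FPKM does not measure amounts of protein. Of the exon bases of MCM2, 23.6% lie in exons of genes on the opposite strand, so its level is less certain than that of MCM4 or MCM5, which overlap no other gene.

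Genes of firing and helicase activation were lower in 8 of 8, and 6 of these kept less than 10%. CDC45 (chromosome 22, 19479459 to 19520612), which completes the active helicase, was at 23.1, 24.1 and 25.3 FPKM in control and at 0.0440, 0.0412 and 0.103 with UDCA. These are 3548 reads in the control libraries against 9 in the treated ones, or 0.262% of control (exact interval 0.120% to 0.497%). MCM10, which helps the assembled helicase start to unwind, was at 8.47, 8.77 and 9.68 FPKM and at 0.0459, 0.0108 and 0.0108. Its 6 UDCA reads against 2529 gave 0.245% of control (exact interval 0.0897% to 0.533%), and since 4 of the 6 came from UDCA replicate 1, the ratio of means moved from 0.250% to 0.120% without that library.

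The 4 GINS subunits, which form a stable complex bound to the ring, differed in depth. GINS4 was at 4.56, 5.16 and 5.70 FPKM in control and at 0.0571, 0.0321 and 0.0323 with UDCA, on 11 reads, or 0.780% of control (exact interval 0.388% to 1.40%). GINS1 kept 2.37% ± 0.45 of 16.2 FPKM, GINS2 kept 3.41% ± 0.63 of 13.1 FPKM, and GINS3 kept 11% ± 3.1 of 3.09 FPKM. Exons of genes on the other strand cover 23.6% of the exon bases of GINS4 and 10.9% of those of GINS3. The kinase subunit CDC7 was at 18.3, 18.4 and 17.2 FPKM in control and at 1.48, 1.6 and 1.84 with UDCA, or 9.12% ± 1.0 of control. Its activator DBF4, at 13.0, 13.6 and 12.1 FPKM, came to 2.76, 2.82 and 2.70, or 21.4% ± 0.45, and was the least reduced gene of the step. The ratio of CDC7 to DBF4 went from 1.39 to 0.592, with no overlap between libraries of the groups.

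Polymerase alpha and primase were lower in 4 of 4 genes, but only POLA1 and PRIM1 by 2-fold or more in log2(FPKM + 1). POLA1, the catalytic subunit, was at 6.07, 5.74 and 5.22 FPKM in control and at 1.74, 1.56 and 1.43 with UDCA, or 27.8% ± 2.7. PRIM2, the large primase subunit, was at 5.11, 5.53 and 6.22 FPKM and at 2.71, 3.24 and 2.75, or 51.6% ± 5.3 (adjusted p = 0.00011). PRIM1, the catalytic primase subunit, varied most among control libraries (5.13, 3.10 and 4.74 FPKM) and was at 1.59, 1.37 and 1.02 with UDCA. It kept 30.7% ± 6.7 (adjusted p = 0.00049), and POLA2 kept 36% ± 3.6 of 1.94 FPKM (adjusted p = 0.00029). Exons of another gene on the same strand cover 35.1% of the exon bases of POLA2, and those of genes on either strand cover 21.6% of PRIM1, so both levels are uncertain.

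The replicative polymerases delta and epsilon were lower in 4 of 5 genes. POLE, the catalytic subunit of the leading-strand polymerase, was at 7.48, 7.94 and 7.48 FPKM in control and at 1.24, 1.27 and 1.32 with UDCA, or 16.7% ± 0.49. Its partner POLE2 kept 21.5% ± 0.46 of 2.70 FPKM. POLD1, the catalytic subunit of the lagging-strand polymerase, kept 24.9% ± 3.5 of 11.8 FPKM. Its small partner POLD2 kept 63.1% ± 2.1 of 46.9 FPKM, a log2 change of -0.65 (adjusted p = 1e-06).

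POLD3, an accessory subunit that also serves repair synthesis, did not pass. It was at 9.23, 9.47 and 8.91 FPKM in control and at 9.41, 8.25 and 9.58 with UDCA, and the groups overlapped (log2 change -0.02 ± 0.058 SE, adjusted p = 0.77). Without UDCA replicate 2 its log2 change was 0.04, also not called, and its adjusted p ranged from 0.098 to 0.99 over the alternatives. Within polymerase delta the treated libraries held POLD1 at 2.46, 3.15 and 3.19 FPKM beside those values of POLD3.

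The clamp and its loader were lower in 5 of 6 genes. PCNA (chromosome 20, 5114953 to 5126626), the most abundant of the 51, was at 220.1, 214 and 218 FPKM in control and at 28.3, 28.3 and 27.3 with UDCA, which left 12.9% ± 0.26. RFC3 was at 31.6, 30.8 and 30.9 FPKM and at 1.41, 1.14 and 1.35, the deepest loss of the loader (4.19% ± 0.46). RFC2 kept 17.3% ± 0.64, RFC5 kept 21.4% ± 1.1 and RFC4 kept 46.2% ± 4.5. Exons of genes on the opposite strand cover 10.6% of the exon bases of RFC5.

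RFC1, the large subunit of this loader, did not pass. It was at 12.8, 13.1 and 12.7 FPKM in control and at 14.3, 13.0 and 13.1 with UDCA, and the groups overlapped. Its log2 change was 0.06 ± 0.041 SE (adjusted p = 0.22), and the sign turned after quantile normalization and after median-ratio scaling (-0.04 under each, not called), over a range of adjusted p from 0.13 to 0.71. Among the small subunits RFC2 to RFC5, the highest exceeded the lowest 2.52-fold ± 0.13 in control and 5.61-fold ± 0.35 with UDCA. The ratio of PCNA to RFC1 went from 16.9 to 2.08.

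Okazaki fragments are trimmed by the flap nuclease FEN1 and sealed by the ligase LIG1, and both genes were lower. LIG1 was at 7.59, 8.01 and 7.76 FPKM in control and at 0.476, 0.393 and 0.520 with UDCA, or 5.94% ± 0.83. FEN1 was at 54.7, 55.4 and 57.0 FPKM and at 6.34, 7.13 and 7.46, or 12.5% ± 1.0. The ratio of FEN1 to LIG1 rose in every treated library, from 7.16 to 15.1.

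Replication protein A, which coats single-stranded DNA in replication and in repair, was among the least reduced complexes, though 3 of 3 genes were lower. RPA1 was at 24.3, 24.2 and 24.9 FPKM in control and at 8.46, 9.20 and 8.74 with UDCA, or 36% ± 1.5. RPA2 was at 35.0, 32.6 and 33.0 FPKM and at 21.3, 22.4 and 21.2, or 64.5% ± 2.0 (log2 change -0.61, adjusted p = 4.6e-06). RPA3 kept 44.0% ± 4.0 of 13.5 FPKM. The ranges of the groups did not overlap in any of the 3.

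Chromatin assembly factor 1 places histones behind the fork. CHAF1A, its large subunit, was at 14.6, 15.3 and 15.1 FPKM in control and at 0.931, 0.846 and 0.918 with UDCA, or 6.00% ± 0.31. CHAF1B was at 3.16, 3.10 and 3.40 FPKM and at 0.953, 0.653 and 0.656, or 23.4% ± 5.4. The pair, unequal in control, stood at similar levels in the treated libraries, with CHAF1B at 0.215 of CHAF1A before and 0.827 after.

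The fork protection genes were lower in 4 of 4, with 1.08% to 62.2% left. CLSPN encodes claspin, which carries the checkpoint signal from a stalled fork to CHK1. It was at 7.13, 6.55 and 6.84 FPKM in control and at 0.0578, 0.0759 and 0.0871 with UDCA, on 1909 and 20 reads, or 1.08% of control (exact interval 0.659% to 1.67%). TIMELESS, which travels with the fork, kept 16.3% ± 0.80 of 23.4 FPKM, and WDHD1, which ties polymerase alpha to the helicase, kept 12.2% ± 1.1 of 6.51 FPKM.

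TIPIN, the obligate partner of TIMELESS, was at 5.19, 4.94 and 4.58 FPKM in control and at 3.25, 2.98 and 2.93 with UDCA. It kept 62.2% ± 3.5 (adjusted p = 0.00011), and the ratio of TIPIN to TIMELESS went from 0.209 to 0.801. A ribosomal protein pseudogene on the same strand covers 21.0% of the exon bases of TIPIN, so its level is uncertain. MCM8, a relative of the ring genes that acts in recombination repair, was at 20.6, 20.9 and 20.9 FPKM and at 3.75, 3.65 and 3.55. It kept 17.5% ± 0.49, close to the median of the 51 genes, with groups far apart.

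Ranked by the median percent of control, the steps ran from firing (2.89%) over loading (6.09%), Okazaki maturation (9.23%), the MCM2-7 ring (9.35%), fork protection (14.2%), chromatin assembly (14.7%) and MCM8 alone (17.5%) to the clamp and its loader (19.3%). Polymerases delta and epsilon (24.9%), polymerase alpha and primase (33.3%), RPA (44.0%) and ORC (103%) followed. The ORC median comes from a split step, from ORC1 at 2.64% to ORC3 at 166%, and does not describe ORC1 or ORC6. The shallowest median exceeded the deepest 35.6-fold, or 21.2-fold with the mean of log2 percent in place of the median. By the median in single treated libraries, firing lay at 2.98%, 3.30% and 2.38% and loading at 5.35%, 5.54% and 7.39%, so these neighbours did not overlap. Okazaki maturation (8.74%, 8.92% and 10.0%) and the ring (9.43%, 9.25% and 9.39%) did overlap, as did fork protection and chromatin assembly. Steps hold 1 to 8 genes that share libraries, so this order is a description, and the range within a step is often wider than the distance between steps.

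Unequal loss was examined in ratios of 16 pairs of genes whose proteins share a complex or act together at the origin or fork. Such ratios do not depend on how libraries are scaled. The pairs were chosen with earlier results of these data known, so their p-values do not come from an independent choice. In 14 pairs the ratios of the treated libraries lay apart from those of the control libraries, each with p = 0.1 in an exact 2-sided permutation test over the 6 libraries, the smallest that 3 against 3 allows (0.114 after Benjamini-Hochberg adjustment over the 16 pairs). No pair could reach an adjusted p under 0.05 in this design. How many pairs of other genes would lie apart was not counted. Of single tested genes, 36.7% lay wholly below control and 46.1% wholly above. The 14 of 16 therefore cannot be called particular to partner genes. The ratio of ORC1 to ORC2 moved most, from 1.70 to 0.0459 (log2 difference -5.21 ± 0.24 SE). That of MCM10 to MCM2 went from 0.336 to 0.0127 (-4.72 ± 0.73), CDC45 to MCM2 from 0.904 to 0.0417 (-4.44 ± 0.42) and CLSPN to TIMELESS from 0.292 to 0.0191 (-3.94 ± 0.15). Without UDCA replicate 1 the MCM10 to MCM2 difference was -5.45, and with 0.1 FPKM added to each value the differences became -4.79 (ORC1 to ORC2), -2.04 (MCM10 to MCM2), -3.05 (CDC45 to MCM2) and -2.74 (CLSPN to TIMELESS). In 2 pairs the libraries of the groups overlapped: POLA2 to POLA1 (exact permutation p = 0.3) and PRIM1 to PRIM2 (exact permutation p = 0.2).

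**Figure D3:**
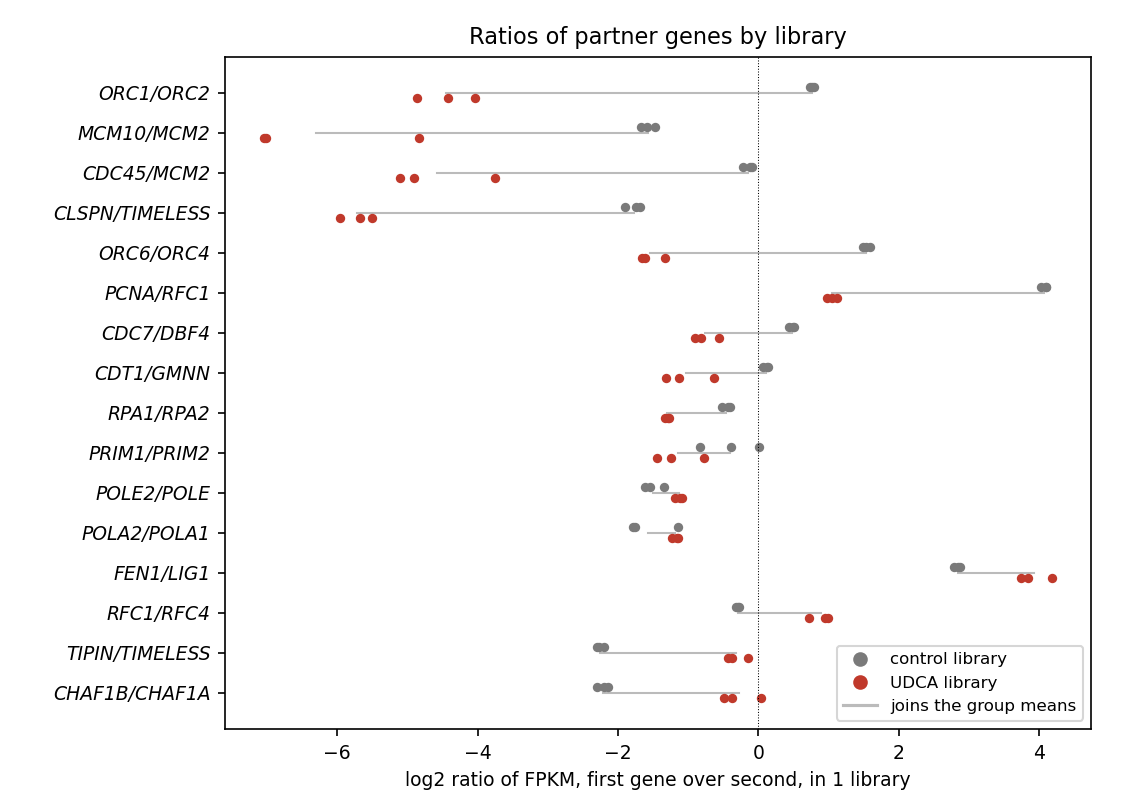
log2 ratio of FPKM of 2 partner genes in each library (control in grey above, UDCA in red below, a grey line joining the group means), sorted by the shift with UDCA. The ORC1/ORC2 ratio moves furthest down (-5.21), and CHAF1B/CHAF1A and TIPIN/TIMELESS move furthest up (1.94 each).

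The letters upstream of the start sites were read for 45 of the 51 genes found in RefSeq's promoter table (GRCh38.p14), which gives 250 bases before and 50 after each start. The stretches below are the last 160 bases before the first start listed, 5′ to 3′ on the gene's strand. They were chosen to show a ring gene, the clamp, deep losses with and without an exact E2F match, and the 2 risen ORC genes. Capitals mark E2F motif letters (TTTCCCGC, TTTCGCGC, TTTGCCGC or TTTGGCGC on either strand, where matches may overlap) and CCAAT, the NF-Y motif, on either strand.
MCM6 (chr2:135876444-135876603, minus strand): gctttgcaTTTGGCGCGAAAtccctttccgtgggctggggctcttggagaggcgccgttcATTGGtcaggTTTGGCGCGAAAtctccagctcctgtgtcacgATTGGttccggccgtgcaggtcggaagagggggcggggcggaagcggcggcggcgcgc
PCNA (chr20:5126623-5126782, minus strand): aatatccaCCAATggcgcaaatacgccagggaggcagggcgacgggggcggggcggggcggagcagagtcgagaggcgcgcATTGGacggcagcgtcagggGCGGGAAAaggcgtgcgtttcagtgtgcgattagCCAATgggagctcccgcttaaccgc
DTL (chr1:212035588-212035747, plus strand): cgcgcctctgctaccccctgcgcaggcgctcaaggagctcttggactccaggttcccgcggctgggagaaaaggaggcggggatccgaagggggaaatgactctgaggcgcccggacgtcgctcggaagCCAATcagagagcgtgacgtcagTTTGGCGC
CDC45 (chr22:19479760-19479919, plus strand): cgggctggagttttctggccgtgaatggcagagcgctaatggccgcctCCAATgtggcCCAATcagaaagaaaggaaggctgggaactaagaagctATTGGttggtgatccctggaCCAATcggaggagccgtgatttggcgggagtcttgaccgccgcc
ORC3 (chr6:87589975-87590134, plus strand): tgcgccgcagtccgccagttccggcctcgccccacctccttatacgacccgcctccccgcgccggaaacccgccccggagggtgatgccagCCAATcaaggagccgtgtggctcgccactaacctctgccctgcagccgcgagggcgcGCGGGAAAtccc
ORC4 (chr2:148021552-148021711, minus strand): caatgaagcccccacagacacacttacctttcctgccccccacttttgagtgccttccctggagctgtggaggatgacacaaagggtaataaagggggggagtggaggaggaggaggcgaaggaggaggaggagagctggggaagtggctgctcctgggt

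E2F motif letters stood in the 300-base windows of 23 of the 45 genes, or 51.1%, where 6.70% of the tested genes with a window held them. CCAAT stood in 27 of the 45 (60.0%, against 43.6% of tested genes) and TTTGAA, the CHR motif of late cell cycle genes, in 1, DBF4 (2.22%, against 13.5%). By step, E2F letters were in 4 of 4 loading genes and in the 4 ring genes with a window (MCM2, MCM3, MCM6 and MCM7), but in 1 of 6 ORC genes. Firing, the deepest step, had them in 4 of 7 genes with a window. They were in 2 of 4 genes of fork protection, of polymerase alpha and primase, and of polymerases delta and epsilon. The clamp and its loader had 2 of 6, Okazaki maturation 1 of 2, MCM8 1 of 1, chromatin assembly 0 of 2 and RPA 0 of 1. MCM6 has 4 overlapping matches in 2 places, and in DTL the match ends at the base before the start.

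Genes with a match kept a median of 12.9% (0.828% to 166%) and genes without one 22.4% (0.250% to 165%). Less than 10% was left in 10 of the 23 genes with a match and in 4 of the 22 without. MCM4, MCM5, GINS4, POLD3, RPA2 and RPA3 had no window and are not in this split. By the ratio of means they kept 2.47%, 3.18%, 0.788%, 98.7%, 64.5% and 44.0%. The ranges overlapped: ORC3, which rose, holds a match, while MCM10 and CDC45, the deepest losses, hold no exact match in these windows. Near matches were not counted. The CDC45 stretch printed above holds tttggcgg, which differs from TTTGGCGC in its last base. A match to these letters is a description of the window and shows neither a bound factor nor its absence.

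**Figure D4:**
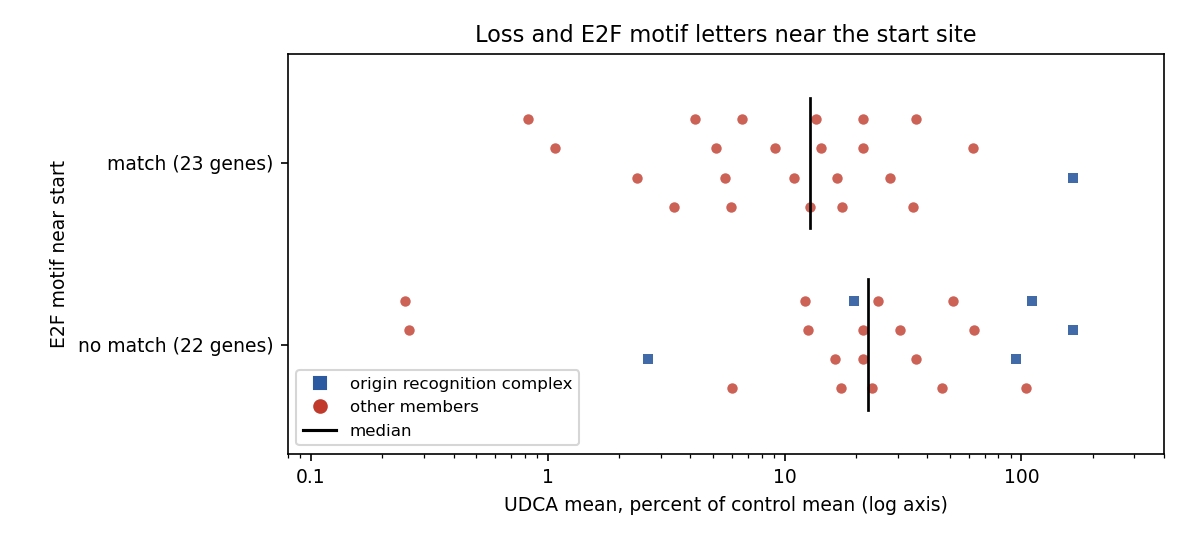
Percent of control (log axis) of the 45 genes with a RefSeq window, split by whether the window holds E2F motif letters, with ORC genes as blue squares, other members as red circles and black lines at the medians (12.9% with a match, 22.4% without). The rows overlap, from 0.828% to 166% with a match and from 0.250% to 165% without.

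Of 53 further genes of replication and its control listed for comparison, 50 were tested. Of these, 36 were lower, 9 higher and 5 not called, where 35.7% of all tested genes were lower and 45.1% higher. Lower by 2-fold or more were 21, where 12.0% of all tested genes were. The median log2 change was -0.60 against -2.07 for the 51, and the median percent left 63.3% against 17.3%. This list is broader, with cyclin, topoisomerase and ubiquitin ligase genes in it, so the medians compare lists of unlike make-up. By log2 change the 4 largest falls were those of ASF1B, CCNA2, UHRF1 and RECQL4. ASF1B, a histone chaperone that works with CAF-1, fell from 31.9 ± 0.0682 to 0.242 ± 0.033 FPKM (0.760% left), and cyclin A gene CCNA2 fell from 42.3 ± 0.47 to 0.673 ± 0.16 FPKM (1.59% left). UHRF1, which guides maintenance methylation at the fork, kept 2.20%, and the helicase gene RECQL4 kept 6.16%. By percent left, PCLAF, which encodes a PCNA-binding protein, at 0.767%, and the helicase gene BRIP1, at 2.42%, also lay below RECQL4. Few UDCA reads stand behind some of these percents: 4 for PCLAF, 28 for ASF1B and 46 for BRIP1. Their control libraries held 534, 3794 and 1973. Of the factors that join CDC45 to the ring, TICRR kept 18.0%, MTBP 14.7% and TOPBP1 35.3%; these 3, PCLAF and BRIP1 were named after their values were seen.

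The 4 largest rises by log2 change were those of CDC34 (2.80-fold), a ubiquitin-conjugating enzyme, CIZ1 (1.83-fold), RAD17 (1.65-fold), which loads the checkpoint clamp, and POLD4 (2.02-fold), the smallest polymerase delta subunit, at 1.2 ± 0.10 and 2.43 ± 0.012 FPKM. Those not called were CCNE1, RIF1, ASF1A, TOP2B and KAT7. Of the histone chaperone paralogs, ASF1A was at 7.46 ± 0.53 and 7.07 ± 0.25 FPKM (adjusted p = 0.29) beside the loss of ASF1B. RNASEH2A, RTEL1 and MCM9 were under the minimum level and were not tested.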

How the data were processed

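The values the authors deposited were read as FPKM. This unit was inferred: multiplied by GENCODE 29 merged exon length, 100% of values became whole read numbers after division by a constant for the library (tolerance 0.01 reads). HISAT2, Bowtie2 2.0.6 and GRCh38 appear, without roles, in the submitters' processing notes. Which program counted reads, with what strand setting, is not given in the sources used here. Outside the mitochondrial genome, positions equal those of GENCODE 29 for 33873 genes.

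Genes reaching 1 FPKM in 3 or more of 6 libraries were fitted with limma 3.58.1 (trend) in R 4.3.3 on log2(FPKM + 1), with group as the only term, 2-sided, Benjamini-Hochberg adjustment at 0.05. The fit was tested on simulated data. Exon overlap used bedtools 2.31.1 on either strand. Intervals for low reads are exact (Clopper-Pearson, 95%) for the ratio of read totals and cover counting error only. Levels compared between genes are per merged exon length, which understates genes with long, rarely used exons.

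The members, steps, pairs and lists were chosen with earlier results of these data known. Every member is named; values by library are given for the lowest and highest member of each step, MCM2-7, members not lower and members under 30 UDCA reads, and for some others chosen after their values were seen. Of the further genes, the rule named the 4 largest falls and rises, taken by log2 change, and those not called. Replicates differed beyond sampling noise (chi-square over its degrees of freedom, 1.67 to 2.73). Alternatives were quantile and median-ratio scaling, totals without mitochondrial genes, a pseudocount of 0.1, no filter, a replicate block, voom on recovered reads and leaving out each library. A reference gene of the list is not reported here.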

Additional observations from a re-analysis of the deposited data

How the results depend on the processing

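All 45 members called lower stayed lower and called under each of the 13 alternatives, with a largest adjusted p of 0.0028 (PRIM1). With quantile or median-ratio scaling 46 were lower, ORC2 being the addition. The number lower by at least 2-fold was 39 to 41. The median log2 change of the members moved from -2.07 to -2.14 with median-ratio scaling, to -2.49 with a pseudocount of 0.1 and to -2.53 with voom on recovered reads, and lay between -2.10 and -2.04 with 1 library left out. The ratio of the shallowest to the deepest step median moved from 35.6 to 21.2 with the mean of log2 percent in place of the median, and was 33.3 to 39.2 with 1 library left out; firing was deepest and ORC shallowest each time. RFC1 changed sign with quantile normalization (-0.043) and median-ratio scaling (-0.044), and POLD3 without UDCA replicate 2, none of them called; with 1 library left out POLD3 ranged from -0.055 to 0.041. No ratio of partner genes changed direction. Same-numbered libraries did not deviate together (r = 0.014, -0.0012 and 0.0072 over 14380 genes), and a replicate block left 45 members lower and changed no call among the members. Depth limits the values of MCM10, CDC45 and GINS4, which rest on 6, 9 and 11 UDCA reads.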
